A study of Mus musculus with 6 samples.

Results

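Adaptor proteins of tyrosine kinase signalling were examined in mouse podocytes grown in culture, the epithelial cells of the kidney glomerulus whose foot processes carry the filtration slit. The genes were 8 in number, Nck1, Nck2, Grb2, Crk, Crkl, Shc1, Gab1 and Gab2, out of 30701 genes measured. They were taken by name, each through the 1 probe set whose annotation named that gene alone, so that no choice between probe sets arose. All 8 were found and tested, and no filter on low values was applied. The arrays came from a podocyte line with NCK1/2 knockout (3 arrays) and a wildtype podocyte line (3 arrays). Both lines were conditionally immortalized, which means that they divide only while an immortalizing factor is switched on. It is switched off to let them differentiate, and both had been differentiated on collagen I for 10 days when RNA was taken. The replicates of each line are described as independent, and each genotype is represented by 1 line, so that genotype and line cannot be told apart. How the genes were inactivated, which exons are missing and whether a line is a single clone are not stated in the sources used here.

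Adaptors have no catalytic activity of their own. An SH2 domain binds a phosphorylated tyrosine on a receptor or scaffold, and an SH3 domain binds a proline-rich stretch of an effector, so that the adaptor brings the effector to the membrane. Nck1 and Nck2 carry both kinds of domain and link phosphorylated nephrin, the cell adhesion protein of the podocyte slit diaphragm, to N-WASP and PAK kinases and so to actin assembly. Grb2 carries the Ras exchange factors Sos1 and Sos2 to receptors. Crk and Crkl bind the phosphorylated scaffolds p130Cas and paxillin and carry the exchange factors Dock1 and Rapgef1. Shc1 binds phosphorylated receptors and, once phosphorylated itself, provides a site for Grb2. Gab1 and Gab2 have neither an SH2 nor an SH3 domain. They are docking proteins that bind Grb2 and, when phosphorylated, recruit phosphatidylinositol 3-kinase and the phosphatase SHP2.

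The promoters of the targeted genes are shown because these are the loci that the knockout targets. RefSeq sequences of build GRCm38.p6, from 250 bases before to 50 bases after an annotated start, were found for 7 of the 8 genes and not for Gab2. Nck1 has a further annotated start that is not shown. In the sequences below, written 5′ to 3′ on the strand of the gene, capitals mark GGGCGG, the core of a GC box, or its reverse complement. The Nck1 window is chr9:100546085-100546384 on the minus strand and the Nck2 window is chr1:43445501-43445800 on the plus strand.
Nck1: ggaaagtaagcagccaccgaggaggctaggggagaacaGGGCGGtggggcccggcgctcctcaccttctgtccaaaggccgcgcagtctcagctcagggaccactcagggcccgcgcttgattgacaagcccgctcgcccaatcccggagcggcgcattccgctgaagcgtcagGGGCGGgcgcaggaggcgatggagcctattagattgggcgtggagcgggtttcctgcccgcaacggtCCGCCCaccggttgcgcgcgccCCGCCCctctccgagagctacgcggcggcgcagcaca
Nck2: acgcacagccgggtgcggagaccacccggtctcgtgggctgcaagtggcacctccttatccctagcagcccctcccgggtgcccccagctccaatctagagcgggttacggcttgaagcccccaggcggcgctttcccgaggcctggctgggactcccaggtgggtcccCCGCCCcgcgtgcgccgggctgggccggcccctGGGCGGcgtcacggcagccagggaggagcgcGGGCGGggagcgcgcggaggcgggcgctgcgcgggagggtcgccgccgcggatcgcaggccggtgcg

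Both windows are rich in CG dinucleotides, with 33 in Nck1 and 37 in Nck2 against a median of 7 over the 32851 promoter windows of the table. GGGCGG occurs 4 times in the Nck1 window and 3 times in the Nck2 window, counting both strands, and 35.7% of all windows hold it. CCAAT occurs 2 times in Nck1 and 1 time in Nck2 (37.4% of all windows). TATAAA, the letters of a TATA box, and CCGGAAG, the letters of an Ets site, are in neither window (13.6% and 8.86% of all windows). GGAATG, the letters of a TEAD site, occurs 1 time in the Nck1 window and not in the Nck2 window (14.7% of all windows). No match overlapped a match of another of these motifs.

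Values are log2 probe set intensities made with RMA, a method that corrects background, normalizes arrays to each other and summarises the probes of a set. A difference of 1 is a doubling of intensity. The 23 background probe sets of the array, which match no transcript, had means with a median of 4.48 and a highest of 7.78, and a mean at or below the highest is called background level. The array medians ran from 6.73 to 6.81. Correlations across genes were at least 0.993 within a line and at most 0.985 between lines. Xist was at 6.01 ± 0.05 in knockout and 12.19 ± 0.04 in wildtype, and the Y-linked Uty at 9.90 ± 0.07 in knockout and 5.21 ± 0.14 in wildtype (mean ± SD, n = 3 each), so that the lines differed in sex chromosomes as well as in Nck. Nphs1, which encodes nephrin, and the podocyte transcription factor gene Wt1 were at background level in both lines, while Synpo and Podxl were above it. These 4 differed by -0.04 to 0.09 and did not pass. Of 10 measured podocyte markers 1 rose, Actn4, and 9 did not pass. This is 10.0%, where 12.0% of all genes and 23.5% of those with a mean above the background range passed. Of the 10 markers, 5 were at background level in both lines. The number of arrays limits the precision.

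Of the 8 adaptor genes, Nck1 and Grb2 fell, Gab2 rose and 5 did not pass (limma, Benjamini-Hochberg adjusted p under 0.05 over all genes). An unadjusted p under 0.05 was reached by 7 of the 8, as it was by 23.1% of all genes and by 42.8% of those with a mean above the background range. Over all genes 6.90% fell and 5.06% rose, and among those with a mean above the background range 13.5% fell and 10.1% rose. The calls are 37.5% of the members, where 12.0% of all genes passed, and 23.5% of the 11392 genes whose mean lay above the background range, as the means of 7 of the 8 members did. With 8 genes the first share rests on 3 calls, the targeted Nck1 among them. Nck1 and Gab2 passed under all 15 alternative settings tried, and Grb2 under 7 of them.

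**Figure D1:**
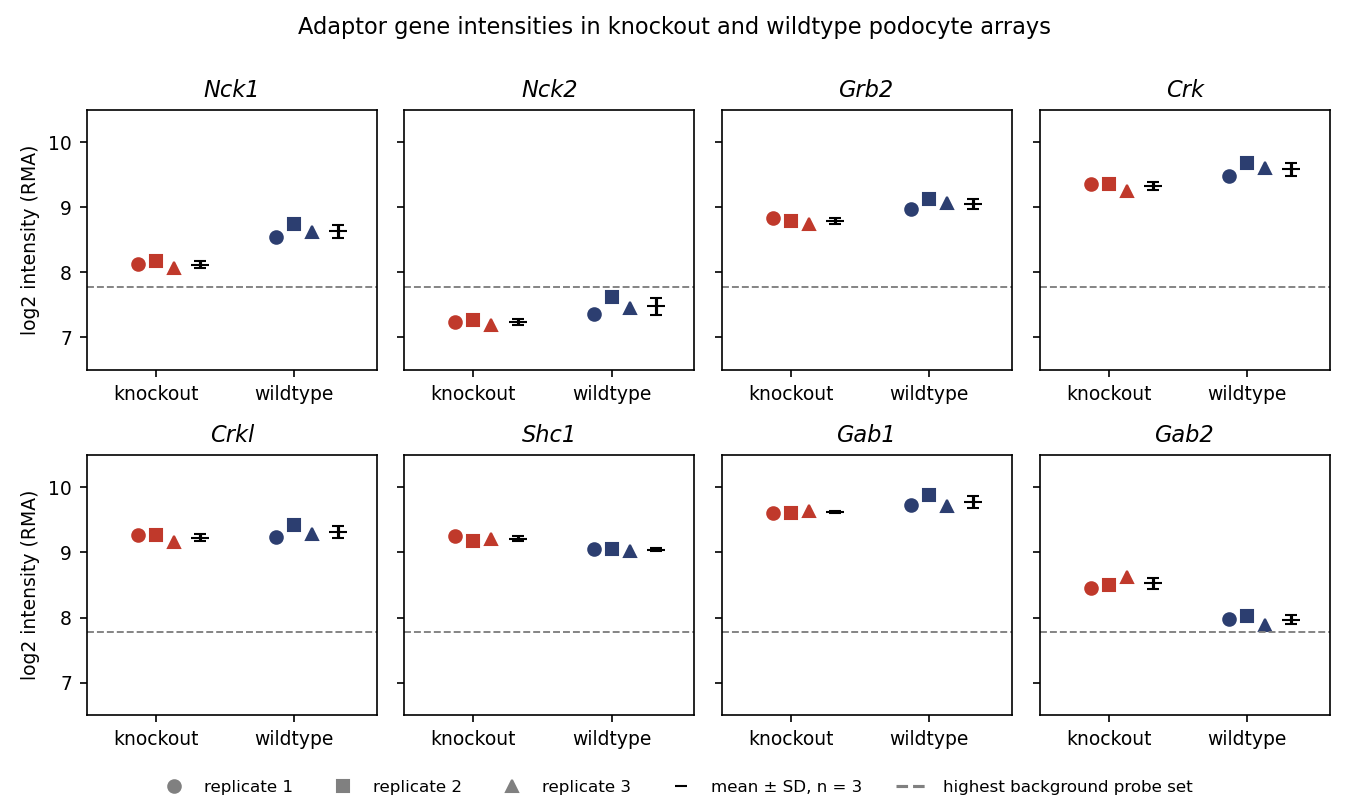
Log2 intensity of each adaptor gene (vertical axis) on the 3 knockout arrays, left, and the 3 wildtype arrays, right, with the mean ± SD beside them; the dashed line is the highest background probe set at 7.78. Nck1 stays above the line in knockout, Nck2 lies below it in both lines, and Crkl is the gene whose groups overlap.

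Nck1 was at 8.13, 8.17 and 8.06 in the 3 knockout arrays, against 8.54, 8.74 and 8.62 in the wildtype arrays (replicates 1 to 3). The groups did not overlap, and every knockout value lay above the highest background probe set. On the log2 scale the change was -0.51 (SE 0.07, 95% confidence interval -0.67 to -0.36, limma adjusted p = 0.00391), which leaves a knockout intensity at 70.0% of that of wildtype. A change at least that large was seen for 6.02% of all genes and for 11.2% of those above the background range. The probe set thus still gave signal in the knockout line. Where its probes lie relative to the deleted part is not known, and transcript and protein cannot be equated here.

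Nck2, the paralog of Nck1 with the same arrangement of domains, was at 7.25, 7.27 and 7.19 in knockout, against 7.37, 7.62 and 7.45 in wildtype. All knockout values were below all wildtype values, and all 6 were at background level. The log2 difference of -0.24 (SE 0.07, 95% confidence interval -0.42 to -0.07) did not pass (limma adjusted p = 0.0941). All 6 values were brighter than 19 of the 23 background probe sets and dimmer than the brightest, and how much Nck2 transcript either line held was not settled by them.

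Grb2, the adaptor for Sos, was at 8.83, 8.79 and 8.75 in knockout, against 8.97, 9.13 and 9.07 in wildtype. Its groups did not overlap. The log2 fold change was -0.27 (SE 0.06, 95% confidence interval -0.40 to -0.13, limma adjusted p = 0.0287), a knockout intensity at 83.1% of wildtype. The call was lost when any knockout replicate or wildtype replicate 2 or 3 was left out (adjusted p from 0.0582 to 0.12), with arrays centred on their medians (0.0986) and with the median change of its chromosome taken off (-0.16, adjusted p = 0.12). Brighter protein-coding genes of chromosome 11, where Grb2 and Crk both lie, had a median log2 change of -0.10 (962 genes), and its part in the result was not tested.

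Crk was at 9.35, 9.36 and 9.25 in knockout, against 9.48, 9.68 and 9.60 in wildtype, again without overlap. Its log2 difference of -0.26 (SE 0.07, 95% confidence interval -0.42 to -0.11) was about the size of that of Grb2 and missed the threshold (limma adjusted p = 0.0506). It passed under 6 of 15 alternatives, among them quantile normalization over all probe sets (adjusted p = 0.0216), and with the chromosome median taken off it was -0.16 (adjusted p = 0.175). Crkl, encoded by a separate gene on chromosome 16, was at 9.26, 9.26 and 9.16 in knockout, against 9.24, 9.42 and 9.29 in wildtype. These groups overlapped. The log2 difference of -0.09 had a 95% confidence interval of -0.24 to 0.06 (limma adjusted p = 0.526), and it was -0.04 without wildtype replicate 2 and 0.03 with the chromosome median taken off.

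Shc1 was at 9.26, 9.17 and 9.21 in knockout, against 9.05, 9.06 and 9.02 in wildtype. The knockout values were all the higher ones. The log2 difference of 0.17 (SE 0.04, 95% confidence interval 0.06 to 0.28) did not pass (limma adjusted p = 0.0607), and it passed with genes dim in both lines left out (adjusted p = 0.0264) and with the chromosome median taken off (0.25, adjusted p = 0.0145).

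Gab1 was at 9.60, 9.61 and 9.63 in knockout, against 9.73, 9.89 and 9.71 in wildtype, without overlap. Its log2 difference was -0.16 (SE 0.06, 95% confidence interval -0.30 to -0.02, limma adjusted p = 0.168). Without wildtype replicate 2 it was -0.10 (adjusted p = 0.162). Gab2 was at 8.45, 8.51 and 8.62 in knockout, against 7.98, 8.02 and 7.89 in wildtype. It was the largest change of the 8 genes and ran opposite to that of Gab1. The log2 fold change was 0.56 (SE 0.06, 95% confidence interval 0.41 to 0.72, limma adjusted p = 0.00265), a knockout intensity at 148% of wildtype. A change of that size or more was seen for 5.05% of all genes and 9.37% of those above the background range.

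**Figure D2:**
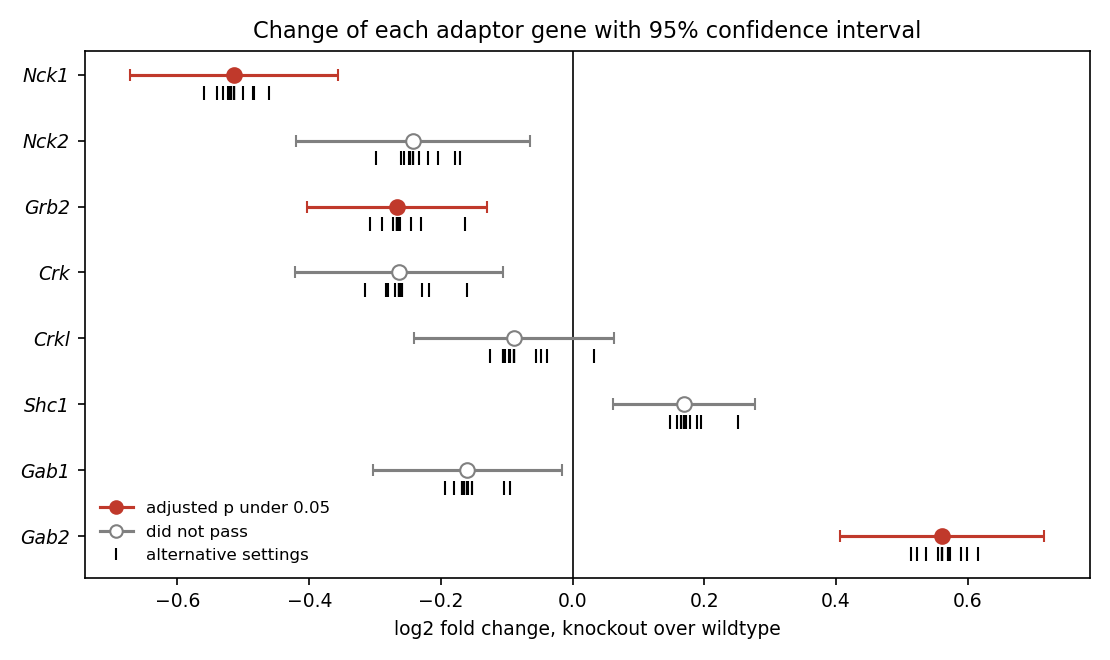
Log2 fold change of knockout over wildtype (horizontal axis) for each adaptor gene, with limma's 95% confidence interval; filled points passed an adjusted p of 0.05 and the ticks under each point are the values under the alternative settings. Nck1 and Gab2 keep their distance from 0 at every tick, and Crkl has 1 tick, at 0.03, on the other side.

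Of the 8 genes, 6 had a negative difference and 2 a positive one. The median was -0.20, against 0.01 over all genes and -0.01 over genes above the background range. Nck1 and Nck2, which the knockout targets, are among the 6 and enter this median. Of the related adaptors, Grb2, Crk, Crkl and Gab1 were lower and Shc1 and Gab2 higher. The 3 knockout values did not overlap the 3 wildtype values for 7 of the 8. The same held for 27.4% of all genes and for 50.0% of those above the background range. In an exact two-sided permutation test each of these 7 reached p = 0.1, the smallest that 3 arrays against 3 can give, and Crkl had p = 0.3. Wildtype replicate 2 was the highest wildtype array for 8 of 8 members, as it was for 64.9% of the genes above the background range and 33.5% of all genes. Without it, Nck1 was at -0.46 (adjusted p = 0.00946) and Gab2 at 0.59 (adjusted p = 0.0102). Grb2 was then at -0.23 (adjusted p = 0.0582).

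Setting 2 probe sets against each other within an array removes a shift common to all probe sets of that array. It does not remove one that depends on intensity. These pairs were chosen after the single values had been seen. Nck1 minus Nck2 was 0.88, 0.90 and 0.87 in knockout, against 1.18, 1.12 and 1.17 in wildtype, a shift of -0.27. Nck2 was at background level, so that this ratio is limited by signal. Crk minus Crkl was 0.09, 0.10 and 0.09 on the log2 scale in knockout, against 0.24, 0.26 and 0.31 in wildtype, a shift of -0.17. Gab2 minus Gab1 was -1.15, -1.11 and -1.01 in knockout, against -1.75, -1.86 and -1.82 in wildtype, a shift of 0.72. For Nck1 minus Nck2 and Crk minus Crkl the lines did not overlap, at the smallest p of the exact two-sided permutation test (p = 0.1, n = 3 each). For Gab2 minus Gab1 no test is given. Its separation was fixed beforehand, since every knockout value lay above every wildtype value for Gab2 and below for Gab1. The spread between replicates was small beside each shift, the largest SD being 0.07, for Gab2 minus Gab1 in knockout. The ratio shows unequal change of intensity within a pair, and whether the transcripts changed unequally was not settled by it. The difference between the 2 baselines also reflects the probes.

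The wider family of adaptor and docking proteins was then examined. Of 45 such genes measured outside the 8, with 3 more not analysed here, 7 rose, 2 fell and 36 did not pass, and the median log2 difference was 0.02. The share that passed was 20%, where 12.0% of all genes and 23.5% of those above the background range did, and 27 of the 45 were at background level in both lines. Blnk, an adaptor of B cell receptor signalling, was at 8.71 ± 0.09 in knockout and 7.10 ± 0.15 in wildtype (log2 fold change 1.62, SE 0.09, limma adjusted p = 0.000136), the wildtype mean being at background level. Irs1, the insulin receptor substrate that docks Grb2, Nck and phosphatidylinositol 3-kinase, was at 10.61 ± 0.07 in knockout and 9.23 ± 0.15 in wildtype, a log2 fold change of 1.38 (SE 0.09). Sh3kbp1, the X-linked CIN85 gene whose product binds Cbl through SH3 domains, rose by 1.20 (SE 0.06), its wildtype mean being at background level. Bcar3, whose product binds p130Cas, rose by 1.16 (SE 0.07). Each of these exceeded the change of any of the 8 members.

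Of 35 measured genes for proteins that bind Nck, with 3 more not analysed here, 5 rose, 6 fell and 24 did not pass, and the median was -0.02. The share that passed was 31.4%, against 12.0% of all genes and 23.5% of those above the background range, and 8 of the 35 were at background level in both lines. Wasf3, a WAVE protein that activates the Arp2/3 complex, was at 6.86 ± 0.06 in knockout and 8.27 ± 0.09 in wildtype (log2 fold change -1.41, SE 0.07, limma adjusted p = 7.48e-05), the knockout mean being at background level. The guidance receptor gene Robo1 fell by 0.72 (SE 0.04) with both means within that range. The Rac exchange factor gene Dock1 was at 9.69 ± 0.01 in knockout and 10.20 ± 0.09 in wildtype, a change of -0.51 (SE 0.06, limma adjusted p = 0.00239). The direct partners Wasl, which encodes N-WASP, and Pak2 differed by -0.04 (95% confidence interval -0.16 to 0.07) and -0.07 (-0.20 to 0.06). The X-linked PAK gene Pak3 fell (-0.30, SE 0.06, limma adjusted p = 0.0239). Brighter protein-coding genes of the X chromosome had a median log2 change of -0.21 (297 genes), and its part in the fall of Pak3 was not tested. Abi2 also fell (-0.51, SE 0.06), while Abi1 rose by 0.39 (SE 0.07) and Lims1 by 0.51 (SE 0.07). The Src-family kinase gene Fyn, whose product phosphorylates nephrin, rose by 0.49 (SE 0.06). Fyn, Wasl, Pak2, Pak3, Abi1, Abi2 and Lims1 were chosen after their values were seen.

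Among 20 measured genes for partners of Grb2, Shc and Gab proteins, with 4 more not analysed here, 5 rose, none fell and 15 did not pass by limma, and the median was 0.05. The share that passed was 25%, near the 23.5% of genes above the background range (12.0% of all genes), and 2 of the 20 were at background level in both lines. At an unadjusted p under 0.05 there were 6 higher and 0 lower, where 42.8% of genes above the background range reached it in either direction and 18.8% were higher. Beside Irs1, Cbl, whose product ubiquitinates activated receptors, was at 9.63 ± 0.09 in knockout and 9.22 ± 0.12 in wildtype (log2 fold change 0.41, SE 0.08). Pik3r1, the regulatory subunit of phosphatidylinositol 3-kinase, rose by 0.37 (SE 0.08) and the endocytic GTPase gene Dnm2 by 0.27 (SE 0.06). The remaining one was the phosphatase gene Inppl1 (0.21), chosen after its value was seen. The count fell to 1 when knockout replicate 1, 2 or 3 or wildtype replicate 3 was left out and to 2 without wildtype replicate 1, and Irs1 passed under all 15 alternatives. The Ras exchange factor genes that Grb2 carries, Sos1 and Sos2, differed by -0.16 (95% confidence interval -0.33 to 0.01) and 0.11 (-0.05 to 0.27), and Ptpn11, which encodes SHP2, by 0.05 (-0.06 to 0.17). These 3 too were chosen with their values known.

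Of 19 measured partners of Crk and Crkl, with 1 more not analysed here, 3 rose, 1 fell and 15 did not pass, and the median was 0.003. The share that passed, 21.1%, was near the 23.5% of genes above the background range (12.0% of all genes), and 4 of the 19 were at background level in both lines. Dock5, a relative of Dock1, was at 9.32 ± 0.07 in knockout and 7.81 ± 0.12 in wildtype (log2 fold change 1.51, SE 0.08, limma adjusted p = 0.00011). Dock1, described above, went the other way. Arhgap32, a GTPase-activating protein gene, rose by 0.87 (SE 0.09), and Cbl is shared with the lists above. The scaffold genes Bcar1, for p130Cas, and Pxn, for paxillin, differed by -0.04 (95% confidence interval -0.16 to 0.08) and -0.03 (-0.13 to 0.08), and the exchange factor gene Rapgef1 by 0.03 (-0.07 to 0.12). These 3 were chosen with their values known.

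Upstream of the adaptors, 44 receptor tyrosine kinase genes were measured, with 4 more not analysed here. Of these 5 rose, 10 fell and 29 did not pass, and the median was -0.001. The share that passed was 34.1%, against 12.0% of all genes and 23.5% of those above the background range, and 23 of the 44 were at background level in both lines. Pdgfrb was at 9.92 ± 0.13 in knockout and 7.56 ± 0.10 in wildtype (log2 fold change 2.36, SE 0.08, limma adjusted p = 2.66e-05), the wildtype mean being at background level. The ephrin receptor gene Epha7 was at 8.81 ± 0.12 in knockout and 10.42 ± 0.13 in wildtype, the Wnt5a receptor gene Ror1 at 8.85 ± 0.03 and 10.09 ± 0.14, and the colony-stimulating factor receptor gene Csf1r at 8.41 ± 0.11 and 9.62 ± 0.11. Their log2 fold changes were -1.61, -1.24 and -1.21. The count of receptors called was 9 without knockout replicate 1 or without wildtype replicate 3.

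Downstream, 14 genes of the Ras to ERK core were measured, with 5 more not analysed here. Of these 3 rose, 1 fell and 10 did not pass, and the median was 0.05. The share that passed was 28.6%, resting on 4 genes, against 12.0% of all genes and 23.5% of those above the background range. The Ras relatives Rras and Rras2 rose by 0.73 (SE 0.11) and 0.39 (SE 0.07), and the MEK gene Map2k1 by 0.28 (SE 0.05, limma adjusted p = 0.014). The X-linked RAF gene Araf was at 9.52 ± 0.02 in knockout and 10.12 ± 0.09 in wildtype, a log2 fold change of -0.59 (SE 0.06) that was -0.38 with the median of the X chromosome taken off. The count was 2 without knockout replicate 1 or 2 or wildtype replicate 3. These lists share genes, 5 between the partners of Nck and those of Grb2, Shc and Gab, so that their counts are not independent.

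**Figure D3:**
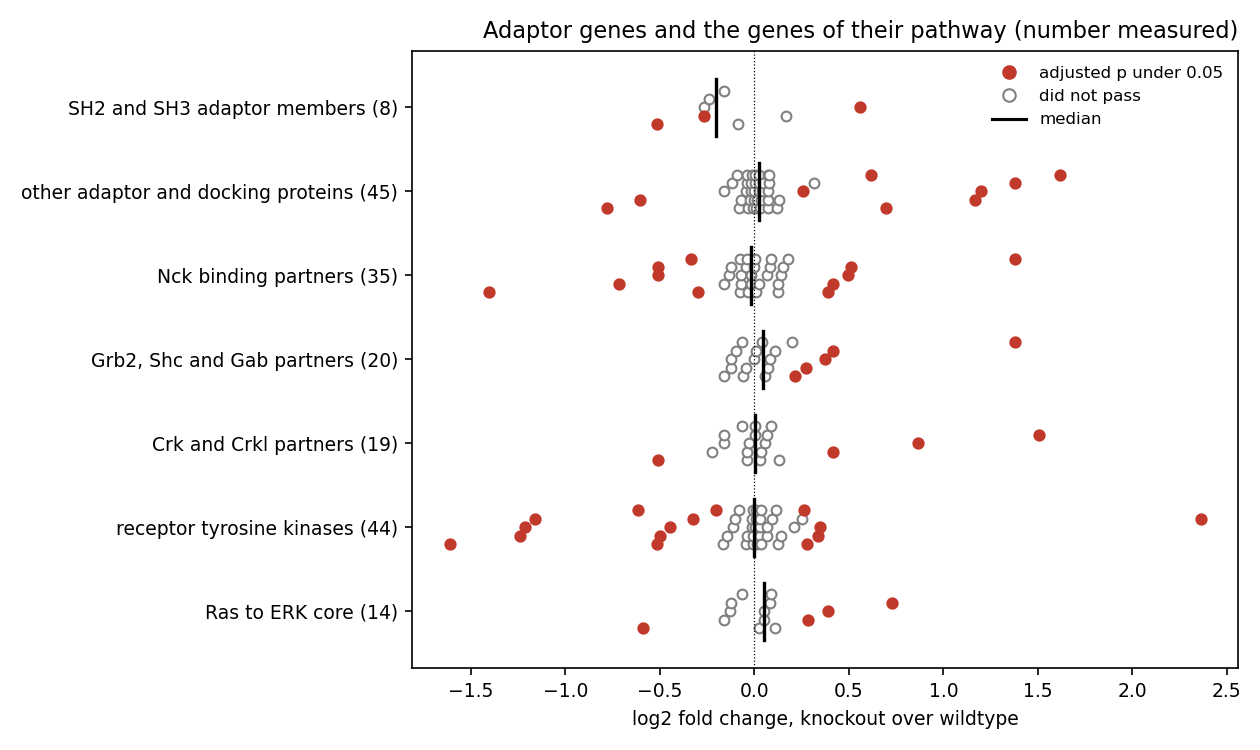
Log2 fold change of knockout over wildtype (horizontal axis) for the 8 adaptor genes and for the genes of 6 pathway lists, 1 point a gene, filled where the adjusted p was under 0.05; the vertical bar is the median of the list and the number measured is in parentheses. The list medians lie between -0.02 and 0.05. That of the 8 adaptors, the targeted Nck1 and Nck2 included, is -0.20. Single genes of the receptor tyrosine kinase list reach 2.36 and -1.61.

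Lists of markers of other cell types were read against the 5.06% of all genes that rose and the 6.90% that fell. Of 8 measured mesangial, pericyte and smooth muscle markers 4 rose, and the mean log2 level of the list ran from 8.61 to 8.75 over the knockout arrays and from 7.44 to 7.55 over the wildtype arrays. Of 5 fibroblast markers 2 rose (8.41 to 8.49 in knockout, 6.85 to 6.94 in wildtype). Of 8 tubular markers 4 fell (8.03 to 8.09 in knockout, 8.73 to 8.85 in wildtype). These means average unequal genes. In the 3 lists 4, 3 and 4 markers were at background level in both lines. The largest log2 changes were 2.83 (Acta2), 4.33 (Dcn) and -3.50 (Aqp1, at 9.42 in knockout and 12.92 in wildtype). The tubular markers Lrp2 (11.39 in knockout, 11.76 in wildtype) and Cdh16 (10.1 and 11.60) were also above background level in both lines. Lrp2 and Cdh16 were chosen after their values were seen. No marker of these 3 lists passed in the other direction. Of 6 parietal epithelial markers 1 rose and 2 fell (9.27 to 9.33 in knockout, 9.40 to 9.46 in wildtype), and of 7 immune markers 1 rose and 1 fell (6.86 to 6.96 in knockout, 6.89 to 7.06 in wildtype). Their part in the changes of the adaptor genes was not tested. All 7 endothelial markers were at background level in both lines, none passed by limma, and 1 had an unadjusted p under 0.05.

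The genes lying beside the targeted loci were examined because a targeted allele can carry flanking DNA of its strain of origin with it. Of the 20 measured protein-coding genes nearest to Nck1, 10 on each side, 2 fell and none rose by limma, with 3 lower and 0 higher at an unadjusted p under 0.05 (10.0% called, where 12.0% of all genes passed), and the median log2 difference was 0.002. The nearest on either side were Il20rb, an interleukin receptor subunit gene, at -0.24 (SE 0.06, limma adjusted p = 0.043) with both means at background level, and Slc35g2 at -0.01. The other that fell was Pccb, a mitochondrial carboxylase subunit gene chosen after its value was seen, at 8.15 ± 0.09 in knockout and 8.56 ± 0.06 in wildtype (log2 fold change -0.41, SE 0.06, limma adjusted p = 0.00819). The count was 1 when any knockout replicate or wildtype replicate 1 or 3 was left out. The change of Nck1 was larger than that of any of these 20 genes.

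Of the 20 genes nearest to Nck2, 1 rose and 5 fell, with a median of -0.03. The share was 30.0%, where 12.0% of all genes and 23.5% of those above the background range passed. Of the 20, 11 were at background level in both lines. The count was 4 or 5 when any 1 array was left out. The difference from the count around Nck1 was not tested. The adjacent genes Fhl2 and Ecrg4 differed by 0.05 and -0.04 and did not pass. Il18rap, an accessory subunit of the interleukin 18 receptor and the farthest of the genes on its side, rose by 1.26 (SE 0.07, limma adjusted p = 0.00014) with both means at background level. The 5 that fell lay on the other side, at places 2, 6, 7, 8 and 9 from Nck2, and were chosen after their values were seen. They were Uxs1 (-0.48), Tex30 (-0.34), Poglut2 (-0.65), Bivm (-0.52) and the DNA repair endonuclease gene Ercc5 (-0.51). Tex30 was at background level in both lines and only just passed (limma adjusted p = 0.0498). Over the neighbours of all 8 adaptors, 20 of 160 passed, of which 4 rose and 16 fell. This is 12.5%, where 12.0% of all genes and 23.5% of those above the background range passed. Around Grb2, 4 of 20 fell and none rose. They included the adjacent gene on each side, Mif4gd (-0.42, limma adjusted p = 0.00406) and Tmem94 (-0.41, limma adjusted p = 0.00637), chosen after their values were seen. Both changes were larger than that of Grb2 (-0.27), and their part in it was not tested. Around Crk 0 of 20 passed by limma, and 1 had an unadjusted p under 0.05.

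**Figure D4:**
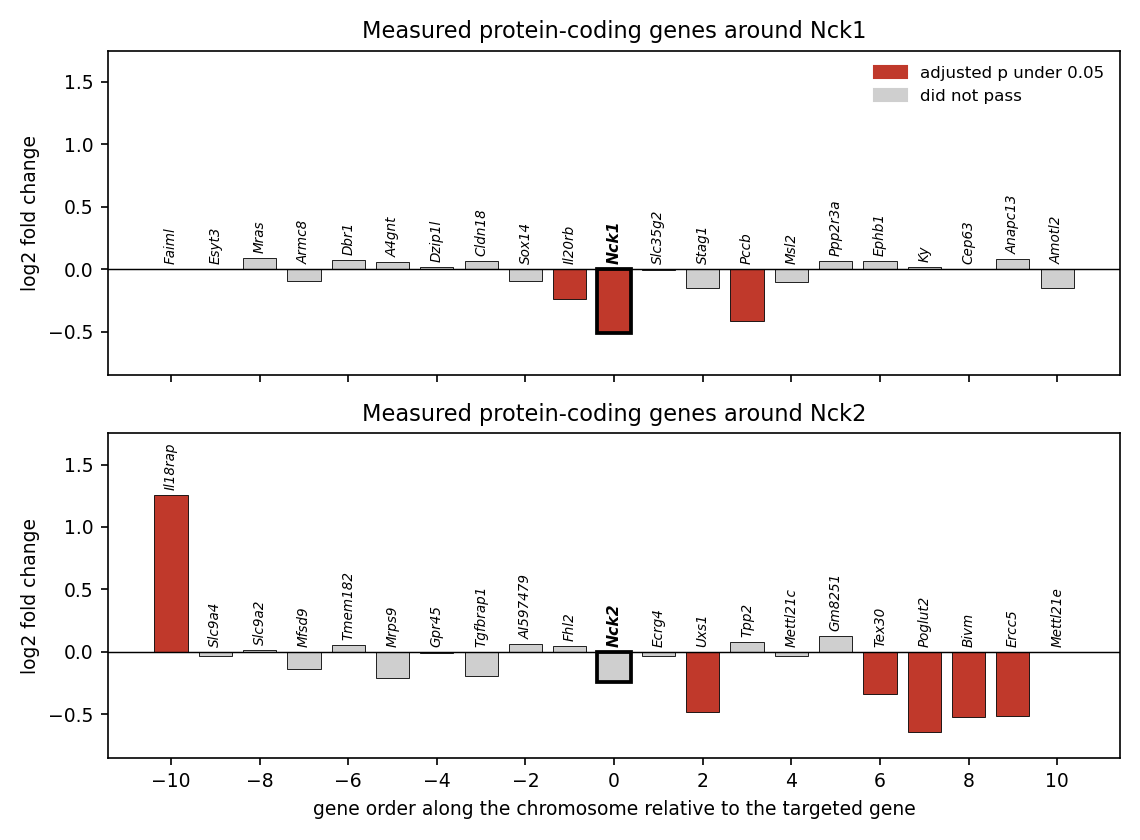
Log2 fold change of knockout over wildtype (vertical axis) for Nck1, Nck2 and the 10 nearest measured protein-coding genes on each side in chromosomal order (horizontal axis); dark red bars passed an adjusted p of 0.05, and the targeted gene is outlined. Nck1 at -0.51 is the lowest bar of its panel, and 6 neighbours of Nck2 passed, of which Il18rap and Tex30 were, like Nck2, at background level in both lines.

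Finally, the genes whose values ran most like those of the targeted genes over the 6 arrays were listed, among genes with a mean at or above the median. For Nck1 these were Pcdhb19, Casd1, Sh3bgrl2, Pex7 and Kif16b, with Pearson correlations from 0.999 to 1.00 and log2 fold changes of -1.17, -0.75, -0.69, -0.55 and -0.64. For Nck2 they were Phf8, Bach1, Mcm9, Foxred1 and Mthfd2l (0.996 to 0.999), none of which passed by limma, with unadjusted p from 0.0084 to 0.0308. The arrays form 2 clusters, by line, so that any gene lower in knockout correlates with Nck1, and 1438 of 15350 genes reached 0.95. Of the adaptors, Grb2 had 0.98 and Crk 0.97 with Nck1, Crkl 0.76, and Gab2 -0.95. These are descriptions over 6 arrays that share 2 lines.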

How the data were processed

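Total RNA from 6 cultures was hybridized to Affymetrix arrays. The authors deposited log2 intensities per probe set; the submitters' processing notes name affy 1.44.0 and RMA, and the probe definition file and any filter are not stated in the sources used here. Of 72688 probe sets, 31258 named 1 gene in the platform annotation after synonyms were merged through the GRCm38.p6 gene table, 1492 named several and were left out, and the brightest of a gene's probe sets was kept, leaving 30701 genes. Close paralogs can share probes. The lines were compared with limma 3.58.1 under R 4.3.3 (lmFit, eBayes, two-sided, no covariate), with Benjamini-Hochberg adjustment over all genes at 0.05. Standard errors and confidence intervals are from that fit, and the computing steps were tested on simulated data. Members and lists were chosen with earlier results of these data known. Genes named were the 8 adaptors, up to 4 called genes of each list with the largest change, set markers, the nearest neighbours of Nck1 and Nck2 and any neighbour changed by 1 or more, and the 5 genes most like each in pattern. P-values measure the spread between samples of 1 line per genotype. Alternatives left out each array, changed normalization, scaling, filters, variance model, probe set rule or threshold, added array weights or a replicate block, or took off each chromosome's median change. Figures were drawn with matplotlib 3.10.9.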

Additional observations from a re-analysis of the deposited data

How the results depend on the processing

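Nck1 ran from -0.56 to -0.46 and Gab2 from 0.51 to 0.62 (log2) over 15 alternatives and passed in each. Leaving out 1 array at a time moved Grb2 from -0.31 to -0.23, Crk from -0.32 to -0.22 and Crkl from -0.13 to -0.04, and the number of all genes called from 2079 to 3388, against 3669. Over the same omissions the genes called numbered 1 to 6 among partners of Grb2, Shc and Gab, 9 to 15 among receptor tyrosine kinases and 2 to 4 in the Ras to ERK core. Nphs1 ran from -0.064 to 0.039, Slc35g2 from -0.11 to 0.062 and Ecrg4 from -0.070 to 0.010, each near 0 with a change of sign. Array weights gave wildtype replicate 3 a weight of 54.7 and called 10170 genes, so a call under them alone is not relied on. They called 7 adaptors, Nck2 (-0.20), Crk (-0.26), Shc1 (0.19) and Gab1 (-0.10) among them, and 15 other adaptors, 20 partners of Nck, 8 of Grb2, Shc and Gab, 8 of Crk, 23 receptors, 8 Ras to ERK genes and 54 neighbours. Slc35g2 was then at 0.020 and the shift of Crk minus Crkl at -0.21. With dim genes left out 5 adaptors passed, among them Crk (-0.26) and Shc1 (0.17), and fewer genes were tested. Crk (-0.26) also passed with quantile normalization, with trend and robust variance and without genes identical within a group. With arrays centred Grb2 (-0.27) did not pass and 1 partner of Grb2, Shc and Gab did. With chromosome medians taken off Grb2 (-0.16) did not pass, Shc1 (0.25) passed, and Crkl (0.033) and Ecrg4 (0.026) changed sign. A threshold of 0.01 left 1 partner of Grb2, Shc and Gab, 9 receptors and 2 Ras to ERK genes. With the replicate block Grb2 (-0.27) did not pass (adjusted p = 0.0614) and 3 partners of Grb2, Shc and Gab did. The replicate numbers were not taken to pair the arrays in the main fit. Same-numbered arrays deviated together at r of 0.35, 0.28 and 0.04. Knockout replicate 1 had -0.34 with wildtype replicate 2, and knockout replicate 2 had -0.25 with wildtype replicate 1. Knockout replicate 3 had 0.05 with wildtype replicate 2, close to the 0.04 with its own number. Whether the numbers pair the arrays was not settled by these values. The cause of these changes was not tested. For 41 other genes named, 548 of 605 alternative values kept their direction and their side of the threshold. Nck2, within the range of the background probe sets, is limited by signal.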
